A study of Mus musculus with 9 samples.

Results

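The data described here are the transcript levels of 36 mouse genes that carry fuel carbon into and around the tricarboxylic acid (TCA) cycle, read from expression arrays of heart tissue. The genes were taken from a named list of enzymes of the TCA cycle, of pyruvate and ketone body oxidation and of amino acid oxidation, and all 36 were found among the 18193 genes that the arrays measured. Each gene is given by its brightest probe set, a group of short probes read as 1 value, and every level is a log2 intensity. The mutant right atria came from mice of the genotype Myh6-cre; COUP-TFIIflox/flox, in which a Cre recombinase under the cardiomyocyte promoter of Myh6 removes the nuclear receptor COUP-TFII (gene symbol Nr2f2). The control ventricles and the control right atria came from COUP-TFIIflox/flox mice, whose floxed gene is left intact and which carry no Cre, so that the presence of Cre and the loss of COUP-TFII cannot be told apart. All 3 groups had 3 arrays each, from C57BL/6 mice aged 2 months. No mutant ventricle was analysed here.

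Heart muscle makes nearly all of its ATP in mitochondria. Pyruvate enters the TCA cycle through the pyruvate dehydrogenase complex, which pyruvate dehydrogenase kinases switch off and phosphatases switch on again, while ketone bodies and the carbon skeletons of amino acids are turned into acetyl-CoA, succinyl-CoA or other members of the cycle. Atrial and ventricular muscle express different contractile and metabolic genes, and COUP-TFII is a receptor found in atrial rather than ventricular myocytes.

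Nr2f2 itself stood at 6.82, 6.62 and 6.82 in mutant atria, at 5.96, 5.34 and 5.74 in control ventricles and, in control atria, at 7.53, 7.66 and 7.29. The mutant atria were therefore lower than the control atria by a log2 ratio of -0.74 ± 0.15 (SE; limma adjusted p = 0.0109). The exons removed are not given in the sources used here, so this probe set may lie outside the deleted part. Myl2, the ventricular myosin light chain, lay between 14.77 and 14.93 in mutant atria, between 15.00 and 15.02 in control ventricles and between 10.50 and 11.66 in control atria. The atrial light chain Myl7 lay between 12.67 and 14.12 in mutant atria, between 6.08 and 8.36 in control ventricles and between 14.89 and 14.95 in control atria. The control groups thus carried the light chain of the labelled chamber, and mutant replicate 2 had the lowest Myl7 of the mutants. The arrays had similar scales, with median intensities from 80.9 to 83.4.

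Most of the 36 genes had the same order of group means. Mean levels ran from the control ventricle down through the mutant atrium to the control atrium in 32 of the 36 genes. In 22 of these no array of any group overlapped with an array of another. The share of all genes with this order was not counted. Some steps were near 0, as for Idh3a between mutant and control atria (0.00). For single pairs of groups without overlap, control ventricles were above control atria in 33% of all genes. Mutant atria were above control atria in 18.9% and below control ventricles in 26.8%. Pdk1 and Bckdhb were lowest in the mutant atrium, and Mdh2 and Pdp1 were highest there. Over the 36 genes, the median deviation from the gene's mean of all 9 arrays was -0.12, -0.00 and -0.11 log2 in mutant atria, 0.32, 0.42 and 0.34 in control ventricles and -0.38, -0.19 and -0.28 in control atria. The same median over all genes stayed between -0.04 and 0.03 on every array.

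**Figure D1:**
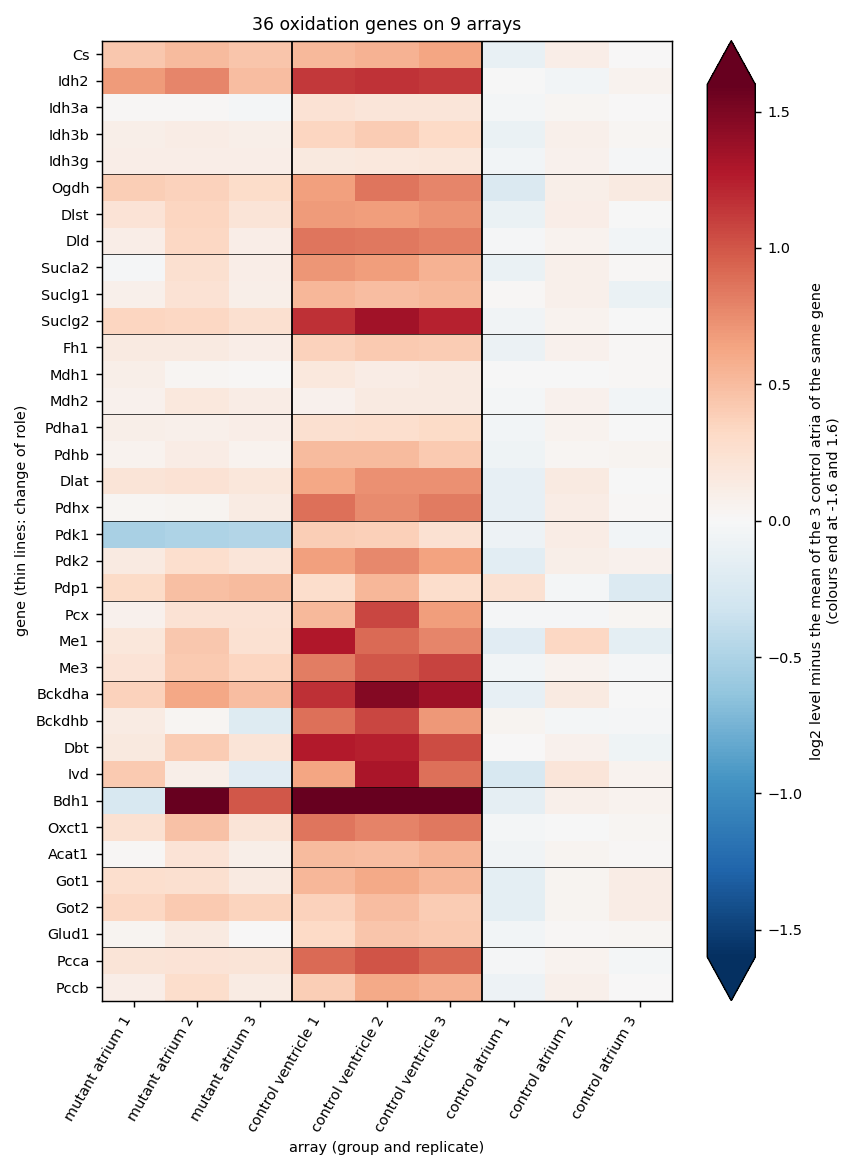
Log2 level of each of the 36 genes (down the page, by role) on each of the 9 arrays (across: mutant atria, control ventricles, control atria), as the difference from the gene's own mean of the 3 control atria. The control ventricle columns are red in nearly every line, and the mutant atrium columns are mostly paler, with Pdk1 blue and Bdh1 of replicate 2 deep red.

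The replicates of a group lay close together. The median standard deviation of the 36 genes (SD, n = 3) was 0.0703 log2 for mutant atria, 0.0643 for control ventricles and 0.0811 for control atria, against 0.0842, 0.101 and 0.0956 over all genes in the same groups. Bdh1 in the mutant atria was the exception, with an SD of 1.34. Tissue was measured in bulk, so fewer cells of a type and less RNA per cell cannot be told apart.

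The promoters of the genes were searched for the letters that nuclear receptors bind, since COUP-TFII and the oestrogen-related receptors, which drive many genes of oxidation, are members of that family. RefSeq windows of 300 bases (250 before and 50 after the gene start, GRCm38.p6) were matched for 32 of the 36 genes. The core AGGTCA, on either strand, stood in 9 of these 32 genes (28.1%), against 18.1% of the 27025 genes with such a window. A gene counts here if any of its windows holds the core, and the 32 genes had 44 windows, against 32851 windows for all genes. Counted by window, the core stood in 22.7%, against 16.3% of all windows. The longer oestrogen-related receptor element TCAAGGTCA and the direct repeat of the core with 1 base between its copies, which both contain the core, stood in 0 of the 32, against 0.466% and 0.0481% of all genes. Among the genes that differed between mutant and control atria the core stood in 3 of 11, and among those that did not pass the test in 6 of 21. The windows of the 3 are printed because their genes belong to 3 different enzymes and were all higher in mutant atria; they were chosen after the longer elements had given no window. Ogdh lies on the plus strand, window chr11:6291920-6292219, Got2 on the minus strand, window chr8:95888352-95888651, and Pcca on the plus strand, window chr14:122484115-122484414. The window of Ogdh is 1 of 6 for that gene and the only one with the core, Got2 has 1 window, and both windows of Pcca hold the core. Each is written 5′ to 3′ in the direction of its gene, and the capitals mark TGACCT, which is AGGTCA on the opposite strand. A match of these letters is a description of the sequence and not a measured binding site.
Ogdh: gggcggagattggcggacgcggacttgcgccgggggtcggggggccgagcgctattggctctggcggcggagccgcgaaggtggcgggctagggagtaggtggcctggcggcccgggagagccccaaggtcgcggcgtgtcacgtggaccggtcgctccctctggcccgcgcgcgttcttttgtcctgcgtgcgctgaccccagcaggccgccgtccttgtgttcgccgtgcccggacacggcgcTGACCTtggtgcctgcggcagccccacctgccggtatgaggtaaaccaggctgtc
Got2: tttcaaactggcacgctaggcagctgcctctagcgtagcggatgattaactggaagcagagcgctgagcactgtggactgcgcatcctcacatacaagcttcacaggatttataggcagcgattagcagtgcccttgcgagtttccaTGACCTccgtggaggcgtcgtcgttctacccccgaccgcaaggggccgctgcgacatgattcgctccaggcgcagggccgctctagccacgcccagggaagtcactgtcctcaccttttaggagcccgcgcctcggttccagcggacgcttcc
Pcca: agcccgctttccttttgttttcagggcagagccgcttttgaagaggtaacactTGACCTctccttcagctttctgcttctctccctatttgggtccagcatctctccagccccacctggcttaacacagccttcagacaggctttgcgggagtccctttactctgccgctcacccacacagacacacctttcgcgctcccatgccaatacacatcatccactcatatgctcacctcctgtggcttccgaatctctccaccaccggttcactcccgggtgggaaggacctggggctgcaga

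The comparison of mutant with control atria asks which of these genes follow the loss of COUP-TFII in atrial muscle. In this comparison 11 of the 36 genes rose, against 7.76% of all genes tested. Pdk1 alone fell, against 9.79% of all genes, and 24 did not pass the test, while 17.5% of all genes passed in either direction (limma, Benjamini-Hochberg adjusted over all genes, threshold 0.05). Of the 36 log2 ratios 34 were positive, their median was 0.18 and the median of all genes was 0.03. Every mutant array lay above every control atrium in 24 genes and below every control atrium in 1 gene, against 18.9% of all genes in each direction. The changes were small, with Idh2 at 1.57-fold as the highest of those that passed.

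**Figure D2:**
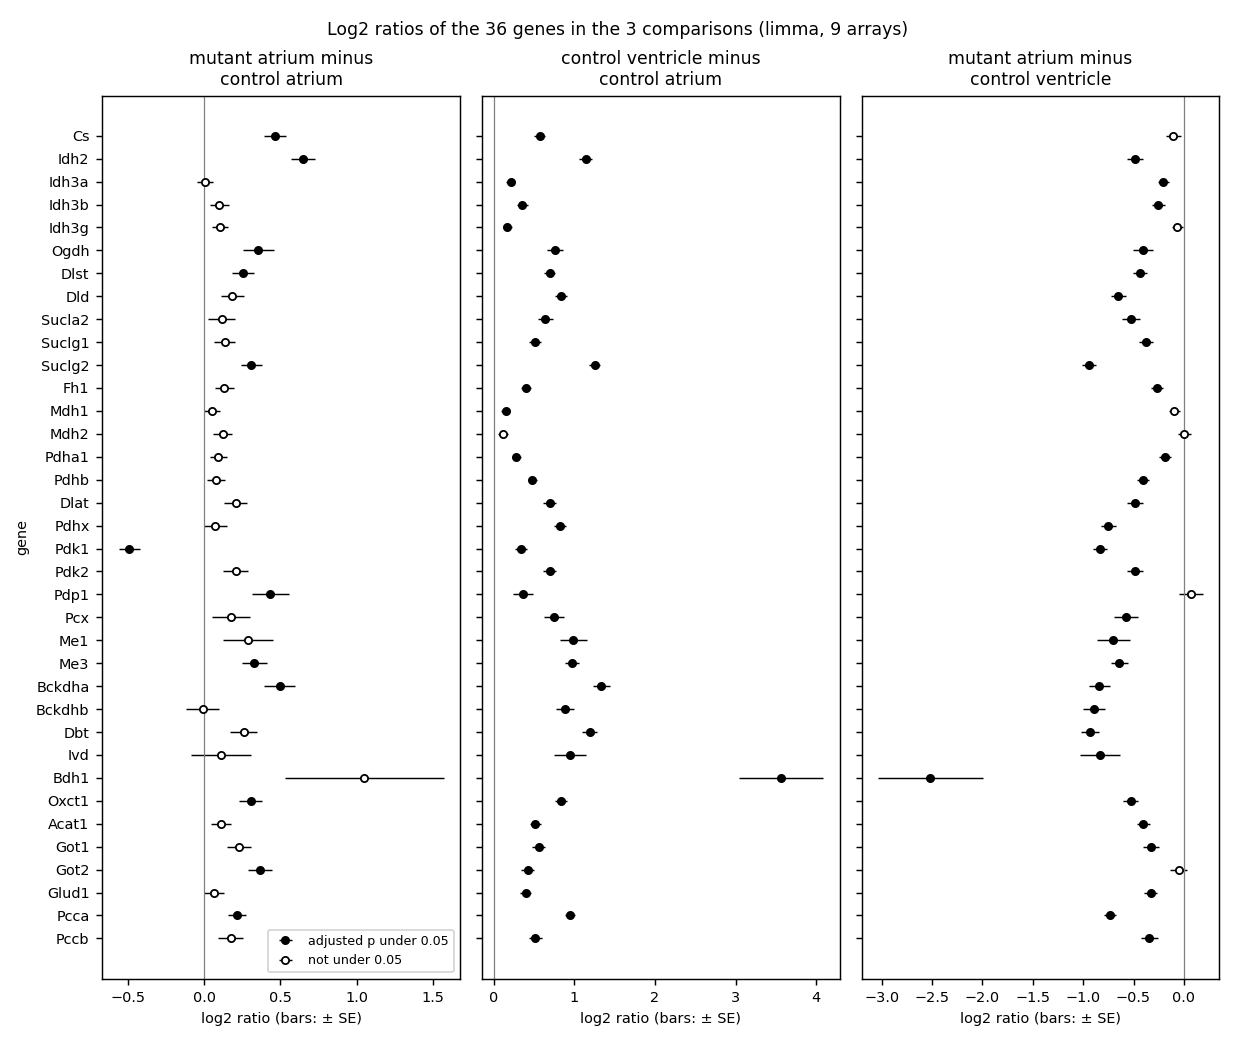
Log2 ratios of the 36 genes (down the page, by role) in the 3 comparisons, with bars of 1 standard error; filled points have an adjusted p under 0.05. Most points of mutant minus control atrium lie just right of 0, nearly all of control ventricle minus control atrium lie further right and are filled, and most of mutant atrium minus control ventricle lie left of 0.

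In the first span of the cycle, citrate synthase and mitochondrial isocitrate dehydrogenase rose. Idh2, the NADP-dependent isocitrate dehydrogenase of mitochondria, stood at 13.22, 13.31 and 13.02 in mutant atria, at 13.66, 13.69 and 13.67 in control ventricles and at 12.53, 12.49 and 12.59 in control atria. The groups did not overlap, and the mutant atria lay between the control groups. The log2 ratio of mutant to control atria was 0.65 ± 0.08 (SE; limma adjusted p = 0.00065). Cs, citrate synthase, which joins acetyl-CoA to oxaloacetate, stood at 13.84, 13.92 and 13.86 in mutant atria, at 13.93, 13.97 and 14.05 in control ventricles and at 13.30, 13.52 and 13.42 in control atria. The mutant atria were close to the ventricles and above all control atria, by 0.46 ± 0.07 log2 (limma adjusted p = 0.00265). The 3 subunits of the NAD-dependent isocitrate dehydrogenase did not pass the test, with log2 ratios of 0.00 for Idh3a, 0.10 for Idh3b and 0.10 for Idh3g.

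Of the 2-oxoglutarate dehydrogenase complex, which makes succinyl-CoA, 2 of 3 genes rose. Dlst, its succinyl-transferring core, stood at 12.12, 12.24 and 12.11 in mutant atria, at 12.59, 12.58 and 12.62 in control ventricles and at 11.80, 12.01 and 11.90 in control atria. Its log2 ratio of mutant to control atria was 0.26 ± 0.07 (limma adjusted p = 0.0371), and that of Ogdh, the dehydrogenase itself, was 0.35 ± 0.10 (limma adjusted p = 0.0415). The mutant atria were above all control atria and below all control ventricles for both genes. Dld, the subunit that pyruvate and branched-chain dehydrogenases also use, gave 0.18 ± 0.08 (limma adjusted p = 0.126).

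Of the succinyl-CoA ligase genes, whose enzyme makes ATP or GTP directly in the cycle, the GTP-forming subunit Suclg2 rose. It stood at 11.18, 11.17 and 11.09 in mutant atria, at 12.00, 12.19 and 12.07 in control ventricles and at 10.78, 10.89 and 10.84 in control atria. The 3 groups were fully separate, and the mutant atria stood nearer to the control atria, at a log2 ratio of 0.31 ± 0.07 (limma adjusted p = 0.0145). The shared subunit Suclg1 gave 0.13 and the ATP-forming subunit Sucla2 gave 0.11, and neither passed the test. Fumarase (Fh1, 0.13) and the cytosolic and mitochondrial malate dehydrogenases (Mdh1, 0.05; Mdh2, 0.12) also did not pass. The malate dehydrogenases lay between 14.08 and 14.41 on all arrays, near the highest values of the arrays (15.02 to 15.11), where array signals can be compressed.

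At the entry of pyruvate, 1 of 3 regulators of pyruvate dehydrogenase fell, 1 rose and 1 did not pass the test, and its 4 subunits did not pass on their brightest probe sets. Pdk1, a kinase that inactivates the complex, stood at 11.00, 11.03 and 11.04 in mutant atria, at 11.91, 11.90 and 11.76 in control ventricles and at 11.44, 11.63 and 11.48 in control atria. All mutant atria were below all other arrays, by -0.49 ± 0.07 log2 against control atria (limma adjusted p = 0.00199). Pdk1 thus differed from control atria in the opposite direction to the control ventricles, which were higher by 0.34 ± 0.07 (limma adjusted p = 0.00353). All 4 of its probe sets gave a negative ratio of mutant to control atria, from -0.49 to -0.13, and only the brightest passed the test. Pdp1, the phosphatase that reactivates the complex, stood at 9.87, 10.04 and 10.07 in mutant atria, at 9.85, 10.09 and 9.84 in control ventricles and at 9.81, 9.54 and 9.35 in control atria. Its mutant and ventricular arrays overlapped and lay above the control atria, at 0.43 ± 0.12 for mutant minus control atrium (limma adjusted p = 0.0373). Pdk2, a further kinase, gave 0.20 ± 0.08 (limma adjusted p = 0.117). The subunits Pdha1, Pdhb, Dlat and Pdhx gave ratios from 0.07 to 0.21, of which Dlat was the highest.

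**Figure D3:**
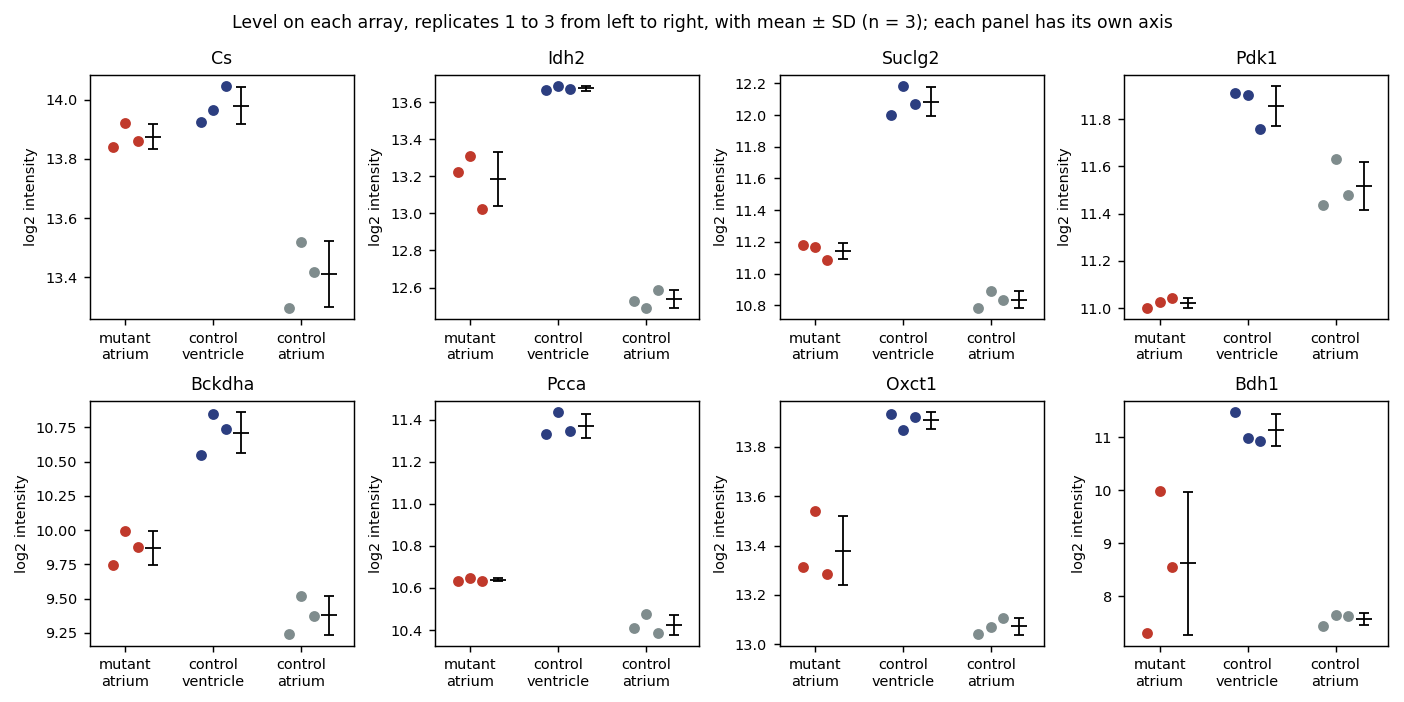
Log2 intensity of 8 genes on each array, in panels with their own axes (mutant atrium, control ventricle and control atrium from left to right; replicates 1 to 3 within a group; bars are mean ± SD, n = 3). Cs, Idh2, Suclg2, Bckdha, Pcca and Oxct1 show mutant atria between both control groups, Pdk1 shows them lowest, and Bdh1 shows them spread from 7.30 to 9.99.

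Me3, the mitochondrial malic enzyme, which turns malate into pyruvate, rose by 0.33 ± 0.08 log2 in mutant atria (limma adjusted p = 0.0252). It stood at 9.47, 9.67 and 9.60 in mutant atria, at 10.08, 10.25 and 10.34 in control ventricles and at 9.21, 9.31 and 9.24 in control atria. The cytosolic malic enzyme Me1 (0.29 ± 0.16) and pyruvate carboxylase Pcx (0.17 ± 0.12), which refills the cycle with oxaloacetate, did not pass the test.

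Among the ketone genes, Oxct1, which activates acetoacetate with succinyl-CoA, rose. It stood at 13.31, 13.54 and 13.28 in mutant atria, at 13.93, 13.87 and 13.92 in control ventricles and at 13.04, 13.07 and 13.11 in control atria. The groups were separate, at a log2 ratio of 0.31 ± 0.08 for mutant minus control atrium (limma adjusted p = 0.023). Bdh1, which oxidises 3-hydroxybutyrate to acetoacetate, stood at 7.30, 9.99 and 8.56 in mutant atria, at 11.48, 10.98 and 10.94 in control ventricles and at 7.43, 7.65 and 7.62 in control atria. Its mutant replicate 1 was at the level of the control atria and its replicate 2 was nearest to the ventricles, so the ratio of 1.05 ± 0.52 did not pass the test (limma adjusted p = 0.195). Without mutant replicate 1 the ratio was 1.71 (limma adjusted p = 0.014) and without mutant replicate 2 it was 0.36 (limma adjusted p = 0.495). The other Bdh1 probe set had the same order among the mutants, at 4.33, 7.49 and 5.04, with 9.64, 9.10 and 8.85 in control ventricles and 4.47, 4.73 and 4.41 in control atria. Replicate 2, highest of the mutants for Bdh1 on both probe sets, was also the mutant lowest in Myl7. Acat1, which splits acetoacetyl-CoA, gave 0.11 ± 0.07 and did not pass.

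Of the genes of amino acid oxidation, 3 rose. Bckdha, a subunit of the branched-chain keto acid dehydrogenase that commits leucine, isoleucine and valine to breakdown, stood at 9.75, 9.99 and 9.87 in mutant atria, at 10.55, 10.85 and 10.74 in control ventricles and at 9.24, 9.52 and 9.37 in control atria. The groups were separate, at 0.49 ± 0.10 for mutant minus control atrium (limma adjusted p = 0.0117). The partner subunit Bckdhb did not follow, at -0.01 ± 0.11, and the core subunit Dbt gave 0.26 ± 0.09 (limma adjusted p = 0.0776). Ivd, an enzyme of leucine oxidation, gave 0.11 ± 0.20. Got2, the mitochondrial aspartate transaminase of the malate-aspartate shuttle, stood at 13.25, 13.34 and 13.27 in mutant atria, at 13.28, 13.41 and 13.32 in control ventricles and at 12.76, 12.97 and 13.03 in control atria. Its mutant atria overlapped with the ventricles and were above all control atria, by 0.37 ± 0.08 (limma adjusted p = 0.0141). The cytosolic Got1 gave 0.23 ± 0.08 (limma adjusted p = 0.0829) and Glud1, glutamate dehydrogenase, 0.06 ± 0.07. Pcca, the biotin-carrying subunit of propionyl-CoA carboxylase, stood at 10.63, 10.65 and 10.63 in mutant atria, at 11.33, 11.44 and 11.35 in control ventricles and at 10.41, 10.48 and 10.39 in control atria. Its rise was 0.21 ± 0.06 (limma adjusted p = 0.0344), and its partner Pccb gave 0.17 ± 0.08, which did not pass the test.

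Of the 12 genes that passed, only Cs, Idh2, Pdk1 and Bckdha passed in each of the 9 fits that left out 1 array. When mutant replicate 2 was left out, 3 genes rose, and when mutant replicate 3 was, 6 rose. Leaving out control atrium replicate 1 left 5. Of all 18193 genes 781, 850 and 809 rose in these fits, against 1411 on all 9 arrays. The control atria also held liver transcripts: the mean log2 level of 13 hepatocyte markers was 5.41, 5.37 and 5.37 in mutant atria, 5.35, 5.26 and 5.26 in control ventricles and 9.75, 8.96 and 7.35 in control atria. All 13 markers were lower in mutant than in control atria, and their summed intensity ran from 767 to 908 in mutant atria, from 547 to 586 in control ventricles and from 3383 to 18434 in control atria. With the marker level as a covariate, 0 of the 36 genes passed (limma, with 3 at an unadjusted p under 0.05), against 74 of all 18193 genes. The marker level varied mainly among the control atria, so this fit can hardly separate it from their group. With the covariate the lowest limma adjusted p of the 36 genes was 0.155. The median standard error of all genes grew to 0.214, against 0.0879 without it. The ratios were then smaller as a group, with a median of 0.07 over the 36 genes, against 0.18 without the covariate, and with 25 positive and 11 negative, against 34 and 2. Among the genes that had passed, Got2 gave 0.02 and Ogdh -0.11, whereas Idh2 gave 0.56, Cs 0.35, Pdp1 1.02 and Pdk1 -0.49. Leaving out the control atria of replicates 1 and 2, the pair highest in these markers, left 1 control atrium, itself at 7.35. Idh2, Cs, Pdp1 and Pdk1 then gave ratios of 0.60, 0.46, 0.65 and -0.45. Over the 36 genes the median was 0.17, with 35 positive and 1 negative. In order of falling liver signal, control atria 1, 2 and 3 had a median deviation of the 36 genes of -0.38, -0.19 and -0.28. Whether the liver signal has a part in these 3 values was not tested.

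**Figure D4:**
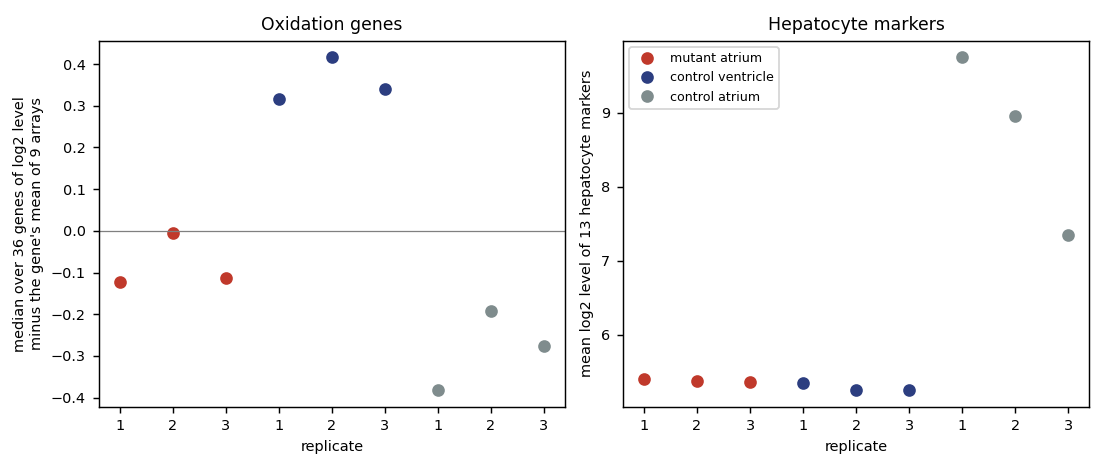
Left, the median over the 36 genes of the log2 level minus the gene's mean of 9 arrays, for each array; right, the mean log2 level of 13 hepatocyte markers on the same arrays (mutant atria, control ventricles and control atria from left to right, replicates 1 to 3 in each). The hepatocyte level ranges from 7.35 to 9.75 in the control atria and from 5.26 to 5.41 elsewhere, whereas the control ventricles are the highest in the oxidation genes.

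Of the contractile genes of both chambers, Myh6 (-0.02) and Tnni3 (0.01), close to the top of the array scale, did not pass the test between mutant and control atria, while Mybpc3 rose by 0.51. Of all 16 cardiomyocyte markers 3 rose and 2 fell, against 7.76% and 9.79% of all genes, and their median log2 ratio was -0.03. Some markers of other cells also differed between these groups, where 7.76% of all genes rose and 9.79% fell. All 10 mesothelial markers were lower in mutant than in control atria, and 4 of 9 macrophage markers were higher. Of 10 endothelial markers 2 were lower, and of 10 fibroblast markers 2 were higher and 1 was lower. Of 8 adipocyte markers, whose tissue is also rich in mitochondria when brown, 2 rose and 1 fell. Their summed intensity ran from 1104 to 1483 in mutant atria, from 1410 to 1579 in control ventricles and from 791 to 982 in control atria, the order of the oxidation genes, and came mostly from Cidea. The brown fat marker Ucp1 was dim, at 4.75 to 4.90 in mutant atria, 4.95 to 5.10 in control ventricles and 4.36 to 4.68 in control atria. Adipoq, the fat cell hormone, fell by 2.45 in mutant against control atria. The mean log2 level of Y-linked genes was 3.73, 8.84 and 8.84 in mutant atria, 3.85, 3.78 and 3.81 in control ventricles and 5.22, 8.81 and 8.33 in control atria, and the sexes of the mice are not given in the sources used here. All control ventricles were low in these genes, whereas replicates 2 and 3 of both atrial groups were high. In both comparisons with ventricles, neither sex nor the Y-linked level can therefore be fully told apart from chamber. With that level as a covariate all 12 genes passed again in mutant against control atria. Between the control chambers 32 of 35 did, and between mutant atria and ventricles 27 of 30. Of all 18193 genes 3308, 7415 and 4448 passed in these fits. The log2 ratio of the 3′ to the 5′ probe set of Gapdh ran from 0.214 to 0.304 in mutant atria, from 0.153 to 0.227 in control ventricles and from 0.345 to 0.364 in control atria. Actb gave 1.28 to 1.38 in mutant atria, 1.26 to 1.37 in control ventricles and 1.39 to 1.49 in control atria. For both genes every control atrium was above all other arrays. The part of the mesothelial, macrophage, endothelial, fibroblast and adipocyte markers and of these 3′ to 5′ ratios in the results was not tested.

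The comparison of the control chambers, partly confounded with the Y-linked level, gives the difference between ventricle and atrium in mice with an intact receptor. In it 35 of the 36 genes were higher in the ventricle, against 29.2% of all genes tested, and 0 were lower, against 23.6%. In either direction 52.8% of all genes passed, and of the 36 only Mdh2 did not pass the test (limma adjusted p = 0.139). The median log2 ratio was 0.67, a 1.59-fold difference, against 0.07 over all genes. The arrays of the chambers did not overlap in 35 genes, all higher in the ventricle, against 33% of all genes higher and 26.7% lower without overlap, and 5 genes were at least 2-fold higher.

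Bdh1 differed most, at 3.57 ± 0.52 log2 or 11.9-fold (limma adjusted p = 0.000416). Its 3 ventricular values lay between 10.94 and 11.48 and its atrial values between 7.43 and 7.65. Branched-chain and leucine oxidation had the highest median of the roles, a log2 ratio of 1.07 over Bckdha (1.33 ± 0.10), Dbt (1.19 ± 0.09), Ivd (0.94 ± 0.20) and Bckdhb (0.88 ± 0.11). Suclg2 was 2.38-fold higher (1.25 ± 0.07, limma adjusted p = 9.06e-07), whereas Suclg1 (0.51 ± 0.07) and Sucla2 (0.64 ± 0.09) differed less. Idh2 was 2.2-fold higher (1.14 ± 0.08, limma adjusted p = 3.38e-06). The malic enzymes and pyruvate carboxylase gave 0.99 for Me1, 0.97 for Me3 and 0.75 for Pcx.

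The pyruvate and 2-oxoglutarate dehydrogenase complexes were between these. Of the pyruvate dehydrogenase genes, Pdhx, which holds the complex together, gave 0.82 ± 0.08, Dlat 0.69 ± 0.08, Pdhb 0.48 ± 0.06 and Pdha1 0.28 ± 0.06, and their regulators gave 0.69 for Pdk2, 0.36 for Pdp1 and 0.34 for Pdk1. Of the 2-oxoglutarate complex, Dld gave 0.83 ± 0.08, Ogdh 0.76 ± 0.10 and Dlst 0.69 ± 0.07. Oxct1 gave 0.83, Pcca 0.95, Pccb 0.52, Acat1 0.51, Got1 0.56, Got2 0.42 and Glud1 0.39. Fh1 gave 0.40 and the isocitrate dehydrogenase subunit Idh3b 0.35 on its brightest probe set. The 4 smallest ratios were those of Idh3a (0.21), Idh3g (0.17), Mdh1 (0.15) and Mdh2 (0.12). Mdh1 and Mdh2 lie near the top of the scale, where array signals can be compressed, and the part of this in their ratios was not tested. The means in control ventricles were 13.39 for Idh3a, 13.41 for Idh3g, 13.67 for Idh2 and 13.91 for Oxct1. The part of compression in the ratios of these genes was not tested either.

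Leaving out any single array kept 32 of the 35 calls. With the hepatocyte level as a covariate 8 of the 36 genes passed, against 1191 of all 18193 genes. All 36 ratios stayed positive, at a median of 0.55. Without control atrium replicates 1 and 2, which left 1 control atrium, all 36 ratios were positive, at a median of 0.62. All 13 hepatocyte and 10 mesothelial markers were lower in the ventricle, as were 7 of 10 endothelial and 8 of 10 fibroblast markers. Of all genes 23.6% were lower there. The part of these markers in the ratios was not tested beyond the hepatocyte values.

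Mutant atria were also set against control ventricles, to show how far the mutant atria stood from the other chamber. In this comparison 30 of the 36 genes were lower in mutant atria, against 16.7% of all genes tested, and 0 were higher, against 16% (limma; at an unadjusted p under 0.05 the same count of 30 passed). The 6 that did not pass were Cs, Idh3g, Mdh1, Mdh2, Pdp1 and Got2. The median log2 ratio was -0.46, against -0.05 over all genes, and mutant atria lay below every ventricle in 33 genes, against 26.8% of all genes. The 3 comparisons are not independent: each group of arrays stands in a pair of them.

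Bdh1 had the lowest ratio, at -2.52 ± 0.52 (limma adjusted p = 0.00502), followed by Suclg2 (-0.94 ± 0.07, limma adjusted p = 1.19e-05), Dbt (-0.93 ± 0.09), Bckdhb (-0.89 ± 0.11) and Bckdha (-0.84 ± 0.10). Pdk1 was lower by a log2 ratio of -0.83 ± 0.07 (limma adjusted p = 3.13e-05), Ivd of -0.83 ± 0.20, Pdhx of -0.75 ± 0.08 and Pcca of -0.73 ± 0.06. The remaining genes that fell lay between -0.70 (Me1) and -0.19 (Pdha1). Oxct1 gave -0.53, Idh2 -0.49, Dlst -0.44 and Ogdh -0.41, so these genes were higher than in control atria and lower than in control ventricles, and each of those differences passed the test. Cs (-0.10 ± 0.07), Got2 (-0.05 ± 0.08) and Pdp1 (0.07 ± 0.12) rose against control atria and did not pass against control ventricles. Such a result does not show that their levels were equal.

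The hepatocyte markers were low in both groups of this comparison, with 12 of 13 not passing the test and Ahsg higher in mutant atria. With the hepatocyte level as a covariate 30 genes were again lower. This level differed little between these groups, so the covariate could hardly change the count. Of the 30 genes, 28 passed in every fit that left out 1 array. All 10 mesothelial, 7 of 9 macrophage, 7 of 10 fibroblast and 5 of 10 endothelial markers were higher in mutant atria than in ventricles. Of all genes 16% were higher. The part of these markers in the lower oxidation genes was not tested.

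Of the 36 genes, 25 had more than 1 probe set, 79 probe sets in all. In mutant against control atria 21 of the 79 were higher and 2 lower, against 5.86% and 8.05% of all 34945 probe sets, and 39 of the 43 further probe sets had the sign of the brightest. Between the control chambers 66 were higher and 1 lower in the ventricle, against 25.7% and 21.5%. Between mutant atria and control ventricles 1 was higher and 51 were lower, against 13.4% and 14.1%. Further probe sets of Acat1 (0.62) and Dlat (0.47 and 0.49) passed in mutant against control atria where the brightest had not, and a further one of Got2 gave 0.77.

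The probe sets of Idh3b, the regulatory beta subunit of the NAD-dependent enzyme, disagreed. The brightest, 1418886_s_at, stood at 12.66, 12.69 and 12.66 in mutant atria, at 12.91, 12.97 and 12.88 in control ventricles and at 12.47, 12.64 and 12.59 in control atria. Probe set 1418885_a_at stood at 10.23, 9.95 and 9.96 in mutant atria, at 9.95, 9.91 and 10.04 in control ventricles and at 10.42, 10.36 and 10.35 in control atria. Probe set 1441271_at stood at 6.42, 6.44 and 6.34 in mutant atria, at 7.41, 7.54 and 7.47 in control ventricles and at 5.79, 6.12 and 6.01 in control atria. The control atria were thus the lowest group on the first and the last of these and the highest on the middle one. Mutant minus control atrium was 0.10 (limma adjusted p = 0.364), -0.33 (limma adjusted p = 0.033) and 0.42 (limma adjusted p = 0.0122) on the 3 probe sets in that order, adjusted over all probe sets. Control ventricle minus control atrium was 0.35, -0.41 and 1.5, all of which passed the test. The counts and ratios given above for Idh3b therefore hold for its brightest probe set and not for the gene as a whole. Which transcripts the probe sets read was not analysed here.

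Sucla2 also split. On its brightest probe set, 1452206_at, mutant minus control atrium was 0.11 and mutant atrium minus control ventricle was -0.53. The dim probe set 1447056_at stood at 6.26, 6.65 and 7.10 in mutant atria, at 4.89, 4.76 and 4.79 in control ventricles and at 4.96, 4.66 and 4.93 in control atria. On it the mutant atria were above every other array, by 1.82 log2 over control atria (limma adjusted p = 0.000191) and 1.86 over control ventricles (limma adjusted p = 5.74e-05), while the control chambers differed by -0.04 (limma adjusted p = 0.88). With the mean of all probe sets of a gene in place of the brightest, Sucla2 was higher in mutant atria than in ventricles, by 0.38 (limma adjusted p = 0.00433).

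**Figure D5:**
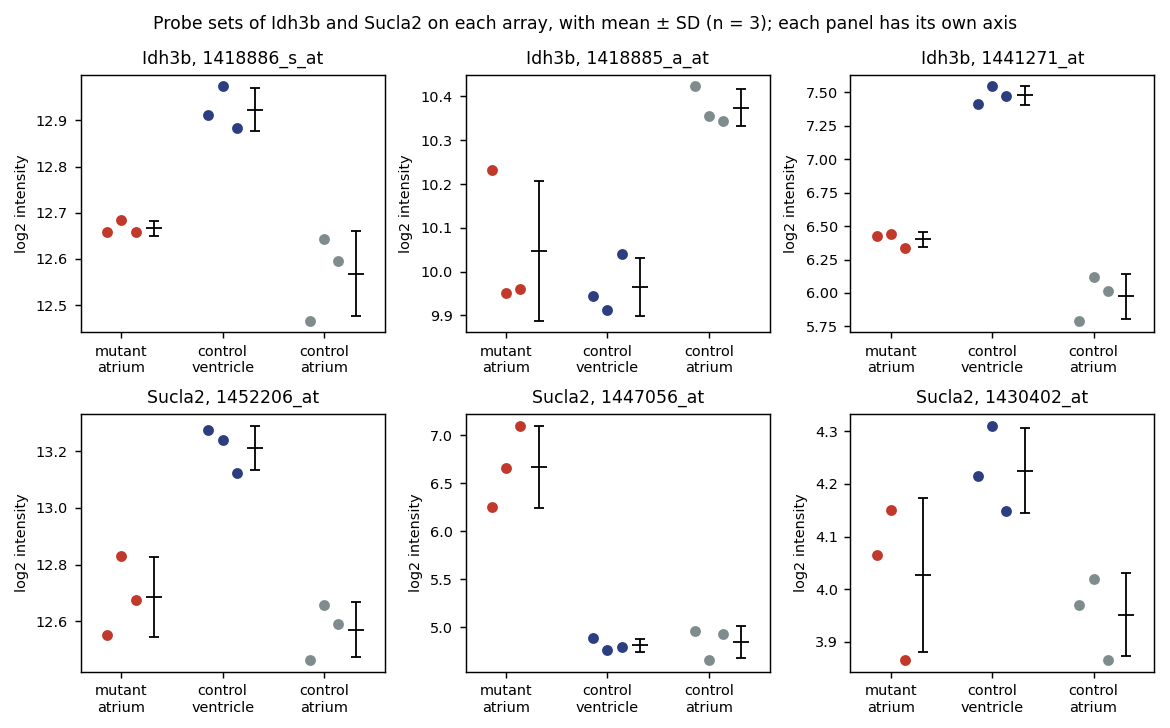
Log2 intensity on each array of the 3 probe sets of Idh3b (top) and of Sucla2 (bottom), in panels with their own axes (mutant atrium, control ventricle and control atrium from left to right; bars are mean ± SD, n = 3). Control atria are highest on Idh3b 1418885_a_at and lowest on the other Idh3b probe sets, and mutant atria stand alone, from 6.26 to 7.10, on Sucla2 1447056_at.

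Other genes of the same pathways and their regulators were counted in the same fit, list by list. In mutant against control atria 7.76% of all genes rose and 9.79% fell. Between the control chambers 29.2% were higher and 23.6% lower in the ventricle. Against ventricles 16% were higher and 16.7% lower in mutant atria. These shares of all genes hold for every list below. Of 7 further TCA cycle genes 2 rose in mutant against control atria, and they were the succinate dehydrogenase subunits Sdhd (0.44 ± 0.07, limma adjusted p = 0.00367) and Sdhc (0.22 ± 0.07, limma adjusted p = 0.0495). Between the control chambers 6 of the 7 were higher in the ventricle, and 4 of 7 were lower in mutant atria than in ventricles. Of 8 further genes of pyruvate handling 2 rose and 1 fell in mutant against control atria. The risers were Mpc1, of the mitochondrial pyruvate carrier (0.34 ± 0.07, limma adjusted p = 0.0099), and Ldhb, a lactate dehydrogenase subunit (0.23 ± 0.06, limma adjusted p = 0.0229). Pdk3, a further kinase of pyruvate dehydrogenase, stood at 7.64, 7.44 and 7.64 in mutant atria, at 6.36, 6.26 and 6.37 in control ventricles and at 8.86, 9.0 and 8.82 in control atria. It fell by 1.32 ± 0.08 log2 in mutant against control atria (limma adjusted p = 1.28e-05) and was higher in mutant atria than in ventricles by 1.24 ± 0.08. Pdk3 was thus highest in control atria and intermediate in mutant atria, while Pdk1, the kinase among the 36 genes that fell, was higher in the ventricle than in both atria. Pdk4, the kinase known for its response to fasting, gave -0.45 ± 0.23 and did not pass (limma adjusted p = 0.197).

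Of 25 further genes of ketone and amino acid oxidation 5 rose and 2 fell in mutant against control atria, and the median log2 ratio was -0.03. Auh, an enzyme of leucine breakdown, rose by 0.58 ± 0.07 (limma adjusted p = 0.000462), Slc16a1, a carrier of lactate, pyruvate and ketone bodies, by 0.50 ± 0.07, and Ppm1k, the phosphatase that activates the branched-chain dehydrogenase, fell by 0.45 ± 0.07 (limma adjusted p = 0.00229). Between the control chambers 20 of the 25 were higher and 3 lower in the ventricle, among them Gpt, alanine transaminase, at 1.79 ± 0.09, Auh at 1.45 ± 0.07 and Hibch, of valine breakdown, at 1.45 ± 0.08. Abat, which breaks down the transmitter GABA, went the other way, at -1.99 ± 0.12. Against ventricles, 20 of the 25 were lower and 2 higher in mutant atria.

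Of 12 transcriptional regulators of mitochondrial genes 3 rose in mutant against control atria and none fell. They were the coactivator Ppargc1b (0.93 ± 0.15, limma adjusted p = 0.00343) and the oestrogen-related receptors Esrrb (0.38 ± 0.08, limma adjusted p = 0.0145) and Esrrg (0.31 ± 0.08, limma adjusted p = 0.0305). Ppargc1b stood at 10.81, 10.84 and 10.92 in mutant atria, at 11.10, 10.97 and 11.36 in control ventricles and at 9.96, 10.23 and 9.58 in control atria. The mutant arrays lay above all control atria and below all ventricles. Esrra gave 0.10 and the coactivator Ppargc1a -0.13, and neither passed. Between the control chambers 8 of the 12 were higher in the ventricle, among them Ppara, the fatty acid receptor, at 0.88 ± 0.10, and Tfam, which maintains mitochondrial DNA, at 0.37 ± 0.07, and both were lower in mutant atria than in ventricles (-0.72 and -0.48).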

How the data were processed

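RNA was extracted from tissue, labelled with biotin by an amplification primed at the 3′ end and hybridised to Affymetrix mouse arrays, 1 array per sample, per the labels' protocols. The deposited values are linear intensities per probe set that the authors normalized with RMA, per the submitters' processing notes, and their log2 was used here. Probe sets were named from the platform annotation: of 45101, 64 controls, 932 with several genes and 9160 without a name were left out, and each of 18193 genes was taken from its probe set of highest mean. limma 3.58.1 (lmFit, eBayes; R 4.3.3) was fitted to all 9 arrays with 6 residual degrees of freedom, and two-sided p-values were adjusted over all genes (Benjamini-Hochberg), with 0.05 as the threshold. The samples are named as biological replicates, and whether they came from separate animals is not given in the sources used here, so p-values measure the spread between these samples. Only 3 arrays per group limit the precision. The fit was tested on simulated data.

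All 36 genes are named. Idh3b and genes whose probe sets disagree are given by each probe set, and from each list of other genes those with the smallest p that passed are named, with Pdk4, Esrra, Ppargc1a and the contractile and adipocyte genes chosen after their values were seen. The genes and lists were chosen with earlier results of these data known. Some listed genes were not analysed here.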

Additional observations from a re-analysis of the deposited data

How the results depend on the processing

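Over 23 alternatives, 2314 of 2484 values of the 36 genes in the 3 comparisons kept their side of the threshold (33 of them, all uncalled, with the other sign), 153 lost a call, 15 gained one, and 2 called values changed sign. For mutant against control atria, 3192 genes passed, 74 with the hepatocyte level as a covariate, 755 without the control atria of replicates 1 and 2 (chosen after seeing the data), 1267 at an adjusted p of 0.01 and 1832 to 3074 when 1 array was left out. Of the 36 genes 11 rose, 0 with the covariate (by limma; 3 passed an unadjusted p under 0.05), 3 without those 2 control atria, 2 at 0.01 and 3 to 10 when 1 array was left out. The 1 that fell was 0 with the covariate, where Ogdh also changed sign (-0.11). With the covariate the median standard error of all genes grew to 0.214 from 0.0879 and the median ratio of the 36 genes fell to 0.07 from 0.18, with 11 of 36 negative, so both smaller ratios and a wider error went with the lost calls. For the control chambers, 9615 genes passed, 1191 with the covariate and 5000 without those 2 atria, and 35 of the 36 genes, 8 with the covariate. For mutant atria against ventricles, 5956 genes passed and 3648 at 0.01, and 0 of the 36 genes were higher, 1 (Sucla2, 0.38) with the mean of all probe sets. Centring each array on its median moved the median of all genes between the control chambers to 0.21 from 0.07 and between mutant atria and ventricles to -0.15 from -0.05. The share of calls that were higher moved to 54.7% from 44.2% in mutant against control atria, to 74.1% from 55.3% between the control chambers and to 27.6% from 48.9% between mutant atria and ventricles. The 36 genes then gave 12 higher, 36 higher and 33 lower. Of all 18193 genes 1751 were higher, 8799 higher and 5884 lower in these comparisons. With the replicate number as a block 2704, 9199 and 5573 genes passed in the 3 comparisons, and 9 of the 36 genes rose in mutant against control atria, Pcca and Pdp1 no longer passing. Whether same-numbered samples came from the same animal is not given. Their deviations correlated at -0.10 to 0.12, and 8 of 18 best matches had the sample's own number. With 3 arrays per group these values cannot decide it.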
